A study of Mus musculus with 6 samples.

Results

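The genes described are 10 precursors of neuropeptides and granins of nociceptors, the sensory neurons that detect painful and itchy stimuli: Calca, Calcb, Tac1, Nmb, Sst, Nppb, Cck, Cartpt, Scg2 and Vgf. They were chosen by gene symbol, with earlier results of these data known, and each matched 1 of the 45777 genes of the table. RNA was sequenced from 3 dorsal root ganglion (DRG) neuron cultures that received recombinant oncomodulin (ONCM), which belongs to the parvalbumin family of calcium binders, at 100 ng/ml for 12 h, and from 3 given PBS for the same time. All came from wild-type C57BL/6 mice, labelled as adult females of 8 weeks, and the cultures carried no other agent or allele per the labels. The labels call the samples biological replicates without naming separate animals or cultures, so p-values here reflect only how far these samples spread, and that spread may be technical.

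Neuropeptides are made as long precursors, packed into dense-core vesicles and cut there by prohormone convertases before release from nerve endings. Peptidergic nociceptors are known for calcitonin gene-related peptide (CGRP) and substance P, which dilate vessels in the skin and signal to the dorsal horn. A separate class of itch neurons uses the natriuretic peptide encoded by Nppb together with somatostatin. Granins such as secretogranin II help to form the vesicles and are themselves cut into peptides. Several of these genes are textbook targets of cAMP signalling through the cAMP response element, the letters TGACGTCA, to which the factor CREB binds.

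The promoters that hold this element are shown because its letters are shared by members with very different levels. RefSeq windows of 300 bases, from 250 before to 50 after a listed start site on build GRCm38.p6, were found for 8 of the 10 genes, all but Calcb and Vgf. The full element, which reads the same on both strands, stood in 3 of the 8 windows and in 1.79% of all 32851 windows. Capitals mark it in the promoters of Sst (chr16:23890795-23891094, minus strand), Scg2 (chr1:79439977-79440276, minus strand) and Cartpt (chr13:99900634-99900933, minus strand).
Sst: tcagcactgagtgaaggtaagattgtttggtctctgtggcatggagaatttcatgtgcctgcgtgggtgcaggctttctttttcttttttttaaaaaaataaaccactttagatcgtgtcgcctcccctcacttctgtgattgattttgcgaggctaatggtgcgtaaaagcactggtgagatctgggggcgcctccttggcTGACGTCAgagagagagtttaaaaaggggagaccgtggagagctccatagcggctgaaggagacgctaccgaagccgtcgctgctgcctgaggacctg
Scg2: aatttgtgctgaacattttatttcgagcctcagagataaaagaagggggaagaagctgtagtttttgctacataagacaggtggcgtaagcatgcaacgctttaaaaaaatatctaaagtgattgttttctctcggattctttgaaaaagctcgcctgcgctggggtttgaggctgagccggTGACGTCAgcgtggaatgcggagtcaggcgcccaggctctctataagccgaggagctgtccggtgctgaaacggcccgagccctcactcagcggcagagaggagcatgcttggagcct
Cartpt: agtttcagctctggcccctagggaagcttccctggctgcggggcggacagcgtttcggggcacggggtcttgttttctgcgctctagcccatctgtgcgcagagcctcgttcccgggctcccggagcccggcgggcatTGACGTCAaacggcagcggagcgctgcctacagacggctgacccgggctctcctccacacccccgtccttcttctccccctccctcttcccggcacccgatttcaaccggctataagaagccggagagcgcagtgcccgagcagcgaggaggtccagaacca

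It lay at -48 to -41 in Sst, at -68 to -61 in Scg2 and at -112 to -105 in Cartpt, counted so that the base before the start site is -1. The shorter core TGACG, searched on both strands as TGACG or CGTCA and contained in every full element, stood in 20.8% of all windows. Calca, Tac1 and Cck held this core without the full element. Capitals mark it in the promoters of Calca (chr7:114636308-114636607, minus strand) and Tac1 (chr6:7554811-7555110, plus strand), the genes for CGRP and substance P.
Calca: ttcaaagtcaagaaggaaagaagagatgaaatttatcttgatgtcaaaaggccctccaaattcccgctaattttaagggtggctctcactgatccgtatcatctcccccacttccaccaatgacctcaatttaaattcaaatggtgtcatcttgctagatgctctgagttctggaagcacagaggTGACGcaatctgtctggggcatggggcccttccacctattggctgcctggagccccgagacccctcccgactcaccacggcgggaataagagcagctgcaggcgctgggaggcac
Tac1: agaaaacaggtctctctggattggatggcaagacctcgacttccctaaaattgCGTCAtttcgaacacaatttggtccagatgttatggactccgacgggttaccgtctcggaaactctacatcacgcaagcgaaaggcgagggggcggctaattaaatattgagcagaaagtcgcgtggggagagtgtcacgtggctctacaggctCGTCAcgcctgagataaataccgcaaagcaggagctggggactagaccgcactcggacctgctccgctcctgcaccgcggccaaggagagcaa

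The core was at -65 to -61 in Calca, at -47 to -43 in Cck, and at both -197 to -193 and -43 to -39 in Tac1. The Nmb and Nppb windows held neither form. The letters TGANTCA of an AP-1 site, found in 7.81% of all windows, were in none of the 8. An E-box (CACGTG, 7.15% of all windows) stood in the Tac1 and Cck windows, and a TATA box (TATAAA on either strand, 13.6% of all windows) in that of Nppb. These matches describe the letters of the windows and were not tested as binding sites.

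Library totals were between 53770820 and 64477014 counts. The libraries went against their sex label: Xist, the RNA of the inactive X chromosome, was at 413 to 513 CPM (counts scaled to library size) with ONCM and at 0.485 to 0.588 CPM with PBS. The Y-linked gene Ddx3y was at 15.1 to 16.9 CPM with ONCM and at 58.1 to 62.4 CPM with PBS. Every library of one group differed from every library of the other in these genes, so a difference in source cells and the treatment cannot be told apart for any value below. The first principal component of the 6 libraries held 66.5% of the variance.

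With ONCM, 9 of the 10 precursor transcripts fell and Vgf rose (edgeR quasi-likelihood test, adjusted p under 0.05). Calca, Calcb, Tac1 and Scg2 were at 55.3% to 59.8% of their level with PBS, and Nmb and Sst fell furthest, to 33.2% and 36.8%. Across all 20354 genes tested, 48.3% were called, 23.9% higher and 24.4% lower in ONCM. The median log2 fold change was -0.78 over the 10 genes and 0.00 over all genes tested. The groups did not overlap for any of the 10 genes, and they did not overlap for 55.6% of all genes tested. Read counts came from whole cultures, in which fewer cells of a type and less RNA per cell cannot be told apart.

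**Figure D1:**
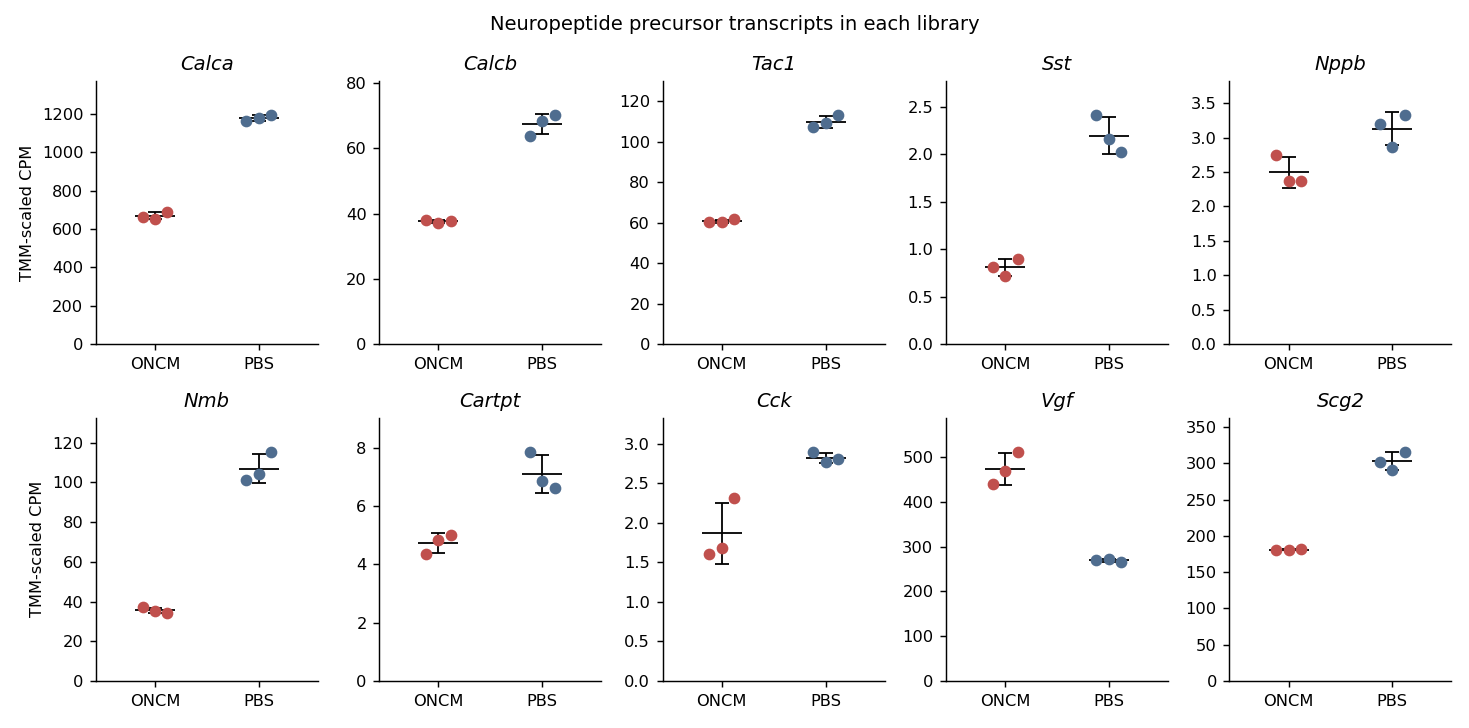
TMM-scaled CPM of the 10 precursor genes in each library. Each point is 1 library, bars are mean and SD (n = 3 per group), axes start at 0; all 3 ONCM points lie below the PBS points except for Vgf, where they lie above.

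Both CGRP genes fell with ONCM. Calca (chromosome 7, 114625981 to 114636910), which gives alpha-CGRP or, by alternative splicing, calcitonin, stood at 664, 654 and 691 CPM in the ONCM libraries, against 1160.5, 1177 and 1192 CPM in the PBS libraries. Every ONCM library was far below every PBS library. Its log2 fold change was -0.81 (SE 0.03, edgeR adjusted p = 4.29e-14). Gene-level counts do not separate the calcitonin and CGRP transcripts. Calcb, the beta-CGRP gene on the same chromosome (114716555 to 114723368), had 38.0, 37.1 and 37.8 CPM with ONCM, against 63.9, 68.3 and 70.1 CPM with PBS. The ONCM libraries were close together and the PBS libraries all higher, at a log2 difference of -0.84 between the groups (SE 0.04, edgeR adjusted p = 8.8e-12). Calca and Calcb are related copies, and their separate values carry an uncertainty, because the sources used here do not say how the authors counted reads that match both.

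Tac1 (chromosome 6, 7555061 to 7562978), the precursor of substance P and neurokinin A, stood at 60.5, 60.3 and 61.7 CPM with ONCM, against 107, 109 and 113 CPM with PBS. The replicates lay within a narrow range in each group and the groups were well apart. The log2 fold change was -0.85 (SE 0.03, edgeR adjusted p = 5.28e-13).

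Nmb (chromosome 7, 80902227 to 80905062) encodes neuromedin B, a bombesin-like peptide that takes part in itch in mice. It had 37.0, 35.0 and 34.4 CPM in the ONCM libraries, against 101, 104 and 115 CPM in the PBS libraries. This was the lowest log2 fold change of the 10 genes, at -1.59 (SE 0.05, edgeR adjusted p = 7.63e-15), and 0.462% of all genes tested had a lower one.

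Both peptide genes of the itch class fell. Sst (chromosome 16, 23889573 to 23891342), the somatostatin gene, had 0.818, 0.716 and 0.896 CPM with ONCM, against 2.41, 2.16 and 2.02 CPM with PBS. These levels rest on 43 to 50 reads per ONCM library and 117 to 156 per PBS library, and the groups were clearly apart. Its log2 fold change was -1.44 (SE 0.17, edgeR adjusted p = 1.38e-06). Nppb (chromosome 4, 147985786 to 147987205), whose natriuretic peptide carries itch signals to the spinal cord in mice, had 2.75, 2.37 and 2.36 CPM with ONCM, against 3.20, 2.86 and 3.32 CPM with PBS. The highest ONCM library was just under the lowest PBS library. The log2 fold change of Nppb was -0.33 (SE 0.13, edgeR adjusted p = 0.0396), and this call was lost with DESeq2 (-0.32, adjusted p = 0.102). It was also lost when ONCM replicate 2 or 3 or PBS replicate 1 or 3 was left out, where the values ran from -0.32 to -0.29 with adjusted p from 0.0945 to 0.116.

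Cck and Cartpt, precursors of cholecystokinin and of the CART peptides, were low in these cultures. Cartpt (chromosome 13, 99898483 to 99910179) had 4.35, 4.83 and 4.997 CPM with ONCM, against 7.86, 6.85 and 6.61 CPM with PBS, at -0.59 on the log2 scale (SE 0.10, edgeR adjusted p = 6.08e-05). Cck (chromosome 9, 121489824 to 121495694) had 1.60, 1.68 and 2.31 CPM with ONCM, against 2.89, 2.77 and 2.80 CPM with PBS. ONCM replicate 3 stood above the other 2 ONCM libraries yet below all PBS libraries. The log2 fold change of Cck was -0.60 (SE 0.15, edgeR adjusted p = 0.003), and -0.78 without that library (adjusted p = 3.34e-04). Cck shares 4037 bases of its span with the long noncoding RNA gene Gm38661, which averaged 1.83 counts per library.

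The granin-type precursors went in opposite directions. Scg2 (chromosome 1, 79434366 to 79440026), the gene for secretogranin II, stood at 181, 181 and 181 CPM with ONCM, against 303, 291 and 316 CPM with PBS. The ONCM libraries were nearly equal, all below PBS, at -0.74 on the log2 scale (SE 0.03, edgeR adjusted p = 1.23e-12). Vgf (chromosome 5, 137025301 to 137033351), a nerve growth factor-inducible precursor cut into several bioactive peptides, had 439, 470 and 511 CPM with ONCM, against 270.3, 271 and 265 CPM with PBS. All ONCM libraries lay above PBS and spread more widely than the PBS libraries did. The rise of Vgf was 1.76-fold, or 0.82 on the log2 scale (SE 0.04, edgeR adjusted p = 3.06e-10).

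**Figure D2:**
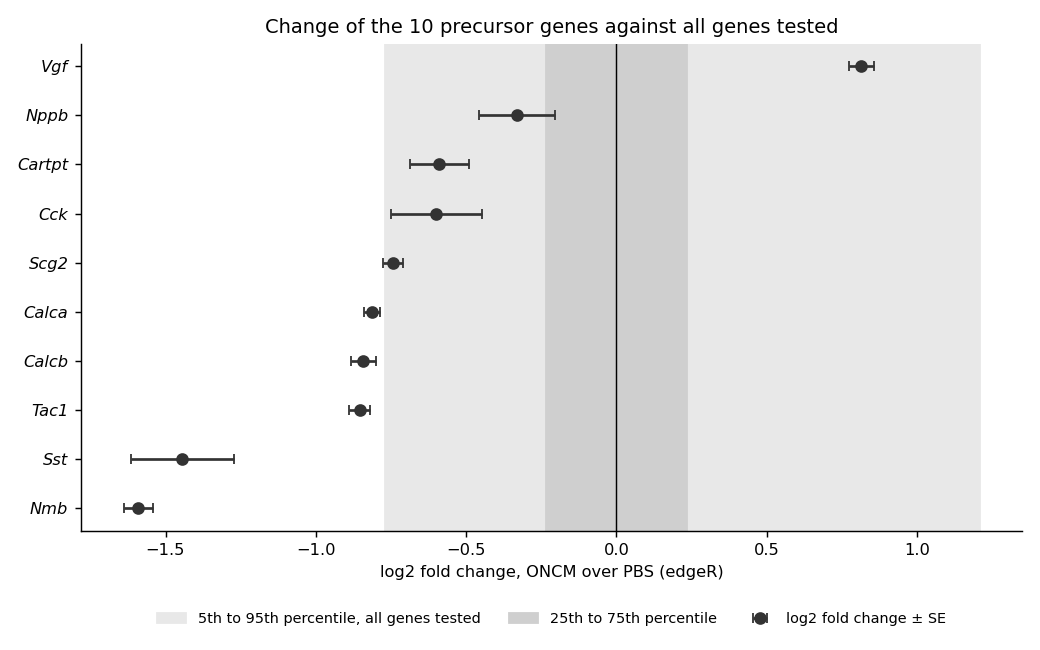
Log2 fold change, ONCM over PBS, of the 10 precursor genes with SE (edgeR, n = 3 per group), over the percentile bands of all 20354 genes tested. Nmb and Sst lie furthest to the left, Calca, Calcb and Tac1 sit just below the 5th percentile of -0.77, and Vgf alone is to the right of 0.

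Compared per transcript length, on the TPM scale as deposited, Calca led in both groups, at 1616 ± 23.5 TPM with ONCM and 2955 ± 9.28 TPM with PBS (SD, n = 3 each). It ranked 57th with ONCM and 25th with PBS among all genes by mean TPM. Below it the order differed between the groups. With ONCM, Vgf came second at 442 ± 30.2 TPM, then Scg2 (165 TPM), Tac1 (144 TPM) and Nmb (125 TPM), none of which overlapped its neighbour. With PBS, Nmb came second at 393 ± 24.4 TPM, followed by Scg2 (288 TPM), Tac1 (271 TPM) and Vgf (262 TPM). Scg2 and Tac1 overlapped between PBS libraries, so their order there is not beyond the spread.

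Calcb, Cartpt, Nppb, Cck and Sst kept places 6 to 10 by mean TPM in both groups. Calcb had 65.9 TPM with ONCM and 123 TPM with PBS, and Sst, the lowest, had 2.74 TPM with ONCM and 8.17 TPM with PBS. Nppb overlapped Cck in both groups, and Cck overlapped Sst in PBS only. The 10 genes summed to between 2557 and 2634 TPM with ONCM and between 4309 and 4388 TPM with PBS. Calca made up 62.1% to 63.0% of that sum with ONCM and 67.6% to 68.4% with PBS.

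**Figure D3:**
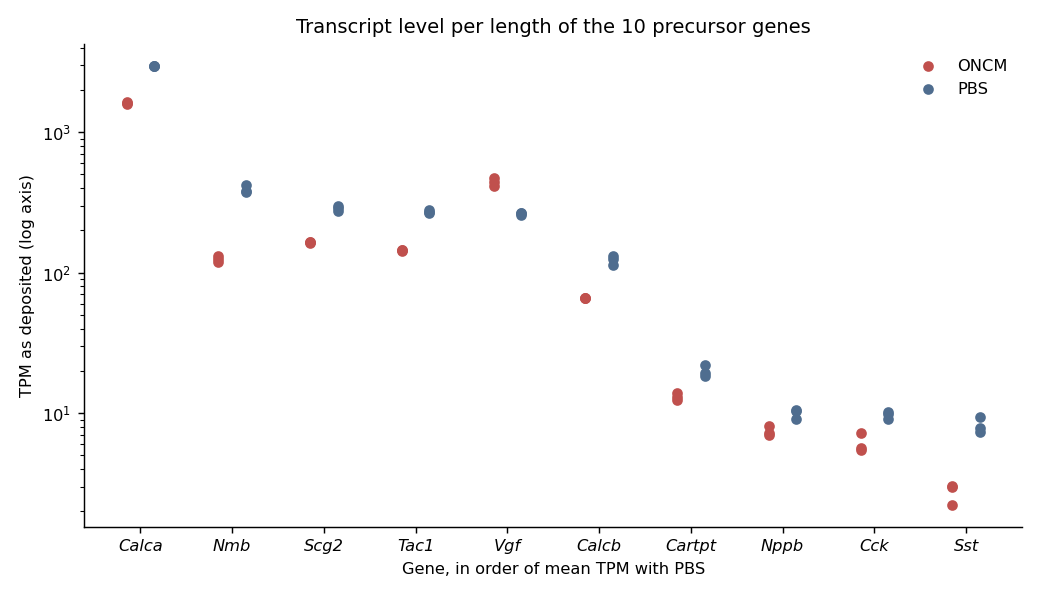
Deposited TPM of the 10 genes on a log axis, ordered by mean TPM with PBS, with 1 point per library. Calca is highest in both groups, Vgf is above Nmb, Scg2 and Tac1 with ONCM and below them with PBS, and Sst is lowest.

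Ratios of read counts within a library need no scaling between libraries and describe which members had counts that moved alike. Calca had 17.5, 17.6 and 18.3 reads for each Calcb read with ONCM, against 18.2, 17.2 and 17.0 with PBS. The groups overlapped (log2 difference 0.03, SE 0.04). The ratio of these related copies carries the uncertainty given above, because how reads matching both were counted is not stated. The ratio of Calca to Tac1 was 10.99, 10.85 and 11.21 with ONCM, against 10.81, 10.76 and 10.54 with PBS, and the groups did not overlap, although the ratio was only 1.03-fold higher with ONCM (log2 difference 0.04, SE 0.02). The log2 differences of these ratios were far smaller than the fall of each gene.

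Larger differences, again without overlap between the groups, were seen in the ratios of 3 other pairs. Nmb had 0.0557, 0.0535 and 0.0498 reads per Calca read with ONCM, against 0.0873, 0.0883 and 0.0967 with PBS, a log2 difference of -0.78 (SE 0.07). Sst had 0.297, 0.303 and 0.379 reads per Nppb read with ONCM, against 0.754, 0.756 and 0.609 with PBS (log2 difference -1.12, SE 0.15). In both pairs the ONCM libraries were all lower. Vgf had 2.43, 2.60 and 2.82 reads per Scg2 read with ONCM, against 0.894, 0.932 and 0.841 with PBS, so the ratio was 2.94-fold higher. Of the 5 pairs compared, all but Calca to Calcb (p = 0.5) had a two-sided exact permutation p = 0.1, the smallest that 3 against 3 allows, and p = 0.125 after Benjamini-Hochberg adjustment over the pairs. This permutation test therefore cannot pass 0.05 with 3 libraries a group.

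**Figure D4:**
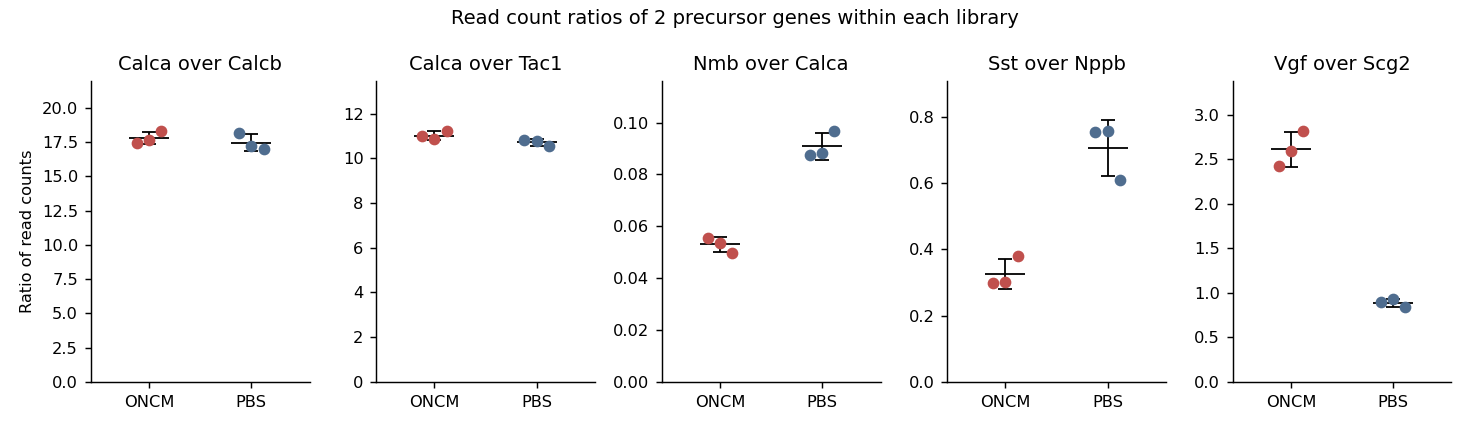
Ratio of the read counts of 2 precursor genes in each library, with mean and SD (n = 3 per group) and axes from 0. The ratios of Calca to Calcb and to Tac1 are nearly level, Nmb to Calca and Sst to Nppb are lower with ONCM, and Vgf to Scg2 is higher.

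Most of a list of genes known from nociceptors and other sensory neuron classes fell. Of 16 tested, 13 fell and 3 rose, and the median log2 fold change was -0.70. Called were thus 100% of them, against 48.3% of all genes tested, where 23.9% rose and 24.4% fell. Prdm12, a transcription factor gene of nociceptors, stood at 40.6 ± 2.08 CPM with ONCM and 78.8 ± 4.09 CPM with PBS (SD, n = 3 each). Th, the tyrosine hydroxylase gene, which in mouse DRG marks a class of low-threshold mechanoreceptors and not peptidergic nociceptors, and Ptgir, the prostacyclin receptor gene, had log2 fold changes of -0.95 and -0.72. Gfra3, the artemin receptor gene, rose by 1.25 on the log2 scale, and Prokr2 and Rspo1 were the other risers, at 0.81 and 1.06. Genes that share the itch class with Sst and Nppb were split, with 5 higher, 3 lower and 1 not passing of 9 tested. In this list 88.9% were called. Nts, the neurotensin gene, rose most of these, to 142 ± 4.40 CPM with ONCM, against 15.1 ± 0.645 CPM with PBS (SD, n = 3 each). Nts is counted again in the list of other neuropeptides below. Il31ra, the interleukin 31 receptor gene, rose by 0.50, Jak1, a kinase gene of cytokine signalling, by 0.44, Hpgds, a prostaglandin D synthase gene, by 1.36 and Htr1f, a serotonin receptor gene, by 0.37. Ptgdr, the prostaglandin D receptor gene, and Cysltr2, a leukotriene receptor gene, fell by 0.40 and 0.46. The other gene that fell had the lowest log2 fold change of this list, at -0.59. Osmr, the oncostatin M receptor gene, did not pass (84.3 CPM with ONCM and 87.8 CPM with PBS, edgeR adjusted p = 0.194).

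Among 21 other genes tested of sensory neuropeptides, granins and related secreted factors, 12 rose and 4 fell while 5 missed the threshold. Their median log2 fold change was 1.21. Called were 76.2% of them, against 48.3% of all genes tested, where 23.9% rose and 24.4% fell. Adcyap1, the gene for the peptide PACAP, rose to 176 ± 1.71 CPM with ONCM, against 56.4 ± 1.32 CPM with PBS (SD, n = 3 each). Ucn, the urocortin gene, was at 4.31 CPM with ONCM and 0.148 CPM with PBS. The 4 that fell were the granin genes Chga, Chgb and Scg3, at -0.64, -0.43 and -0.38, and the neurotrophin gene Bdnf, at -0.18. Summed over that list, transcripts were at 1575 to 1599 CPM with ONCM and at 1047 to 1090 CPM with PBS. The higher sum with ONCM rests on Gal, Npy and Nts, at 335, 165 and 142 CPM with ONCM. With PBS these were at 12.2, 1.89 and 15.1 CPM. Scg3 went the other way, from 572 CPM with PBS to 440 CPM with ONCM. Of the relatives of CGRP, Adm, the adrenomedullin gene, rose by 0.35 and Adm2 did not pass (0.41, edgeR adjusted p = 0.15). Iapp, the amylin gene, had 0 counts in all 6 libraries, which allows at most 3 counts or 0.0464 to 0.0558 CPM per library, by counting error only.

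Genes that process and release peptides went both ways, with more falls than rises. Of 24 tested, 6 rose, 11 fell and 7 did not pass, with a median log2 fold change of -0.09. The share called was 70.8%, against 48.3% over all genes tested, where 23.9% rose and 24.4% fell. The prohormone convertase gene Pcsk2 fell to 175 ± 2.74 CPM with ONCM, against 233 ± 3.02 CPM with PBS (SD, n = 3 each). Cadps and Rab3a, for a vesicle priming factor and a vesicle GTPase, fell by 0.50 and 0.54 on the log2 scale, and Rab27b and Syt7, also of vesicle release, fell by 0.77 and 0.57. Syt4, a synaptotagmin of dense-core vesicles, rose by 0.71. The other convertase gene, Pcsk1, named after its values were seen, did not pass (105 CPM with ONCM and 104 CPM with PBS, log2 fold change 0.02, edgeR adjusted p = 0.576).

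Receptor genes for these peptides were listed together with receptors of related peptides and partner proteins of receptors. Of the 21 tested, 8 rose, 2 fell and 11 did not pass, with a median log2 fold change of 0.16. The share called, 47.6%, was near the 48.3% over all genes tested, and on log2(TPM + 1) 5 were higher and 1 lower. The cholecystokinin receptor genes Cckar and Cckbr rose by 1.58 and 3.50, to 75.9 ± 0.33 and 19.5 ± 0.814 CPM with ONCM, against 25.3 ± 0.299 and 1.70 ± 0.507 CPM with PBS (SD, n = 3 each), while their ligand gene Cck fell. Sstr2, a somatostatin receptor gene, fell by 1.12 to 0.636 CPM with ONCM, against 1.38 CPM with PBS. Npr2, which encodes the receptor for C-type natriuretic peptide, fell by 0.16. The CGRP receptor genes Calcrl and Ramp1 and the substance P receptor gene Tacr1, named after their values were seen, did not pass: they stood at 5.50, 0.283 and 0.799 CPM with ONCM and at 5.59, 0.270 and 0.719 CPM with PBS. C3ar1, a receptor gene for complement C3a and for a VGF-derived peptide, rose by 2.03; macrophages are also known to express it, and their marker genes rose, as given below with the other cell types.

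Of 11 peptide-degrading enzyme genes tested, 72.7% were called, against 48.3% of all genes tested, where 23.9% rose and 24.4% fell. These 11 genes gave 6 rises, 2 falls and 3 not passing, with a median log2 fold change of 0.15. This balance turned on log2(TPM + 1), with 2 higher and 3 lower, and was 3 and 3 on log2(TPM + 0.1). Mme, the neprilysin gene whose product cuts substance P, fell by 0.50, Ece2 fell by 0.40, and the aminopeptidase gene Anpep rose by 1.48.

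**Figure D5:**
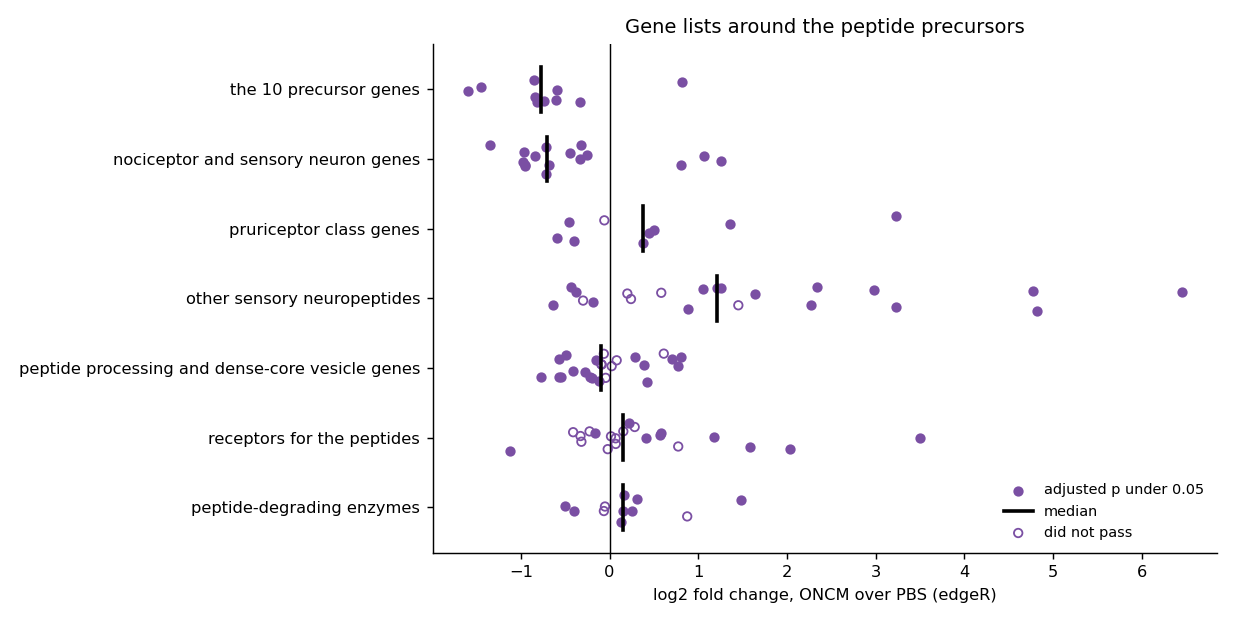
Log2 fold change, ONCM over PBS, of each tested gene in 7 lists (1 point per gene, filled where the edgeR adjusted p was under 0.05, black bar at the median). The 10 precursors and the nociceptor and sensory neuron genes have medians of -0.78 and -0.70, and the other neuropeptides reach from -0.64 to 6.45.

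Markers of the cell types in the cultures are given beside these results. Among 22 pan-neuronal genes there were 12 falls, 6 rises and 4 that missed the threshold. They summed to 27227 to 28640 CPM with ONCM and 28065 to 28950 CPM with PBS, ranges that overlap. With libraries scaled to that neuronal sum, Calca, Tac1 and Nmb had log2 fold changes of -0.78, -0.82 and -1.56, Vgf had 0.85, and Nppb no longer passed (-0.29, edgeR adjusted p = 0.0804). Schwann cell and satellite glia genes, 6 raised and 1 lowered of 16, summed to 5600 to 5902 CPM with ONCM and 5390 to 5518 CPM with PBS. All 12 macrophage genes rose, to sums of 112 to 115 CPM with ONCM, against 39.1 to 42.6 CPM with PBS. Fibroblast genes, 5 raised of 8, summed to 434 to 456 CPM with ONCM and 299.9 to 304 CPM with PBS. Endothelial and mural genes, 4 raised and 2 lowered of 9, summed to 219 to 224 CPM with ONCM and 229 to 235 CPM with PBS. The share called was 81.8% for pan-neuronal, 43.8% for glia, 100% for macrophage, 62.5% for fibroblast and 66.7% for endothelial and mural genes. Over all genes tested it was 48.3%, so the glia share was not above that of all genes. None of these markers was at 0 in all libraries, and the part that glia, macrophages, fibroblasts and vessel cells have in the precursor values was not tested.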

How the data were processed

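The authors deposited 1 table with read counts, FPKM and TPM for each gene and library. Counts and TPM were used as deposited. FPKM values, also deposited, were left aside. Columns were matched to samples by the codes in the labels. The build is mm10, per the submitters' processing notes. Not given in the sources used here are the aligner, the counter, the annotation release and whether strand was used. Gene positions and promoter windows came from RefSeq tables of GRCm38.p6, the same assembly, matched by Entrez number for 45679 of 45777 genes.

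The count test was run with edgeR 4.0.16 under R 4.3.3 (filterByExpr, TMM scaling, robust quasi-likelihood F-test, no covariate), with Benjamini-Hochberg adjustment over all 20354 genes tested. Genes with an adjusted p under 0.05 passed, and the SE is the log2 fold change divided by the square root of F. Alternatives used DESeq2 1.42.0, limma 3.58.1 on log2(TPM + 1) or log2(TPM + 0.1), other scalings, filters, a replicate block and fits without each library in turn. No library pair of a group agreed within sampling noise (chi-square per degree of freedom 2.76 to 7.09, over genes with at least 20 counts in the pair). Counts were also simulated for the 20354 genes tested, of which only 50 were changed at each fold. After the simulated counts were filtered again, 20000 genes were tested. The test recovered 44% of 1.25-fold, 60% of 1.5-fold, 76% of 2-fold and 94% of 4-fold changes. Of its calls there, 3.52% were false. In the data 48.3% of the genes tested were called, a far larger share, so these rates need not hold for the calls given here.

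The genes, lists and tests were chosen with earlier results of these data known. Named genes are all 10 precursors, up to 6 genes with the smallest p-values of each list, any list count of 5 or fewer in full where described, and the 3 genes most correlated with Calca or Tac1. Some genes that this rule names are not reported here. Depth limits cover counting error only, since reads lacking molecular identifiers may be copies of 1 molecule.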

Additional observations from a re-analysis of the deposited data

How the results depend on the processing

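The direction of all 10 precursor genes held in the 15 alternatives, and 204 of 210 recomputed values for the precursors and for all genes kept their side of the threshold or stayed within 1.5 times. The other 6 concern Nppb, with log2 fold changes of -0.32 under DESeq2, -0.29 under pan-neuronal scaling and -0.32 to -0.29 without ONCM replicate 2, ONCM replicate 3, PBS replicate 1 or PBS replicate 3. Its range over all fits that leave out a library was -0.40 to -0.29. The range over all alternatives was -0.87 to -0.78 for Calca, -0.92 to -0.82 for Tac1, -1.65 to -1.54 for Nmb, -1.55 to -1.29 for Sst and 0.75 to 0.87 for Vgf. Cck ran from -0.78 to -0.50, with adjusted p up to 0.0187, and the cause was not tested.

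Rises were 49.5% of the calls on counts, 39.3% on log2(TPM + 1) (3613 higher and 5589 lower) and 56.3% under pan-neuronal scaling (5239 higher, 4073 lower). On log2(TPM + 1), 5 receptor genes were higher and 1 lower, against 8 and 2 on counts, 2 degrading enzyme genes were higher and 3 lower, against 6 and 2, and 2 endothelial and mural genes were higher against 4. Lowered glia genes numbered 1 on counts and 2 to 4 in 7 alternatives. Over all lists, 402 recomputed counts stayed within 1.5 times and 18 did not. Same-numbered samples did not vary together (correlations of deviations -0.045, -0.012 and 0.0017, against up to 0.034 between different numbers). With the replicate block, 9 precursors were lower and 1 higher, with Calca at -0.81, and 4733 genes were higher and 4864 lower. Depth limits Sst, Cck and Nppb most, which had 43 to 207 reads per library.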

Other observations

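Transcription factor genes known from peptide gene control or nociceptor identity went both ways with ONCM, with more falls than rises. Of 26 tested, 13 fell, 6 rose and 7 did not pass, with a median log2 fold change of -0.13. Called were 73.1% of them, against 48.3% of all genes tested, where 23.9% rose and 24.4% fell. Etv1, Prdm12, Pou4f1 and Isl1, all genes of sensory neuron identity, fell by 0.91, 0.96, 0.62 and 0.44 on the log2 scale. Crem, a gene of the CREB family, rose to 16.7 ± 1.02 CPM with ONCM, against 11.1 ± 1.03 CPM with PBS (SD, n = 3 each), and Junb rose by 0.36. On log2(TPM + 1), 3 of these genes were higher and 13 lower. Creb1 itself, named after its values were seen, did not pass (39.1 CPM with ONCM and 37.2 CPM with PBS, edgeR adjusted p = 0.291).

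Over all tested genes with the full cAMP response element in a promoter window, 25.6% of 441 were higher and 30.4% lower in ONCM, with a median log2 fold change of -0.02. Over the 14831 tested genes with any window, 24.5% were higher and 26.1% lower. This count was chosen after seeing the data and was not tested.

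As a description over 6 libraries that fall into 2 groups, the genes most correlated with Calca in log2 CPM, among 10040 genes with a mean of at least 10 CPM, were Oprd1, Kdm5d and Ephx1, with Pearson's r of 0.9997, 0.9996 and 0.9995. Kdm5d is Y-linked, and stood at 5.79 CPM with ONCM and 18.4 CPM with PBS. For Tac1 they were Ephx1, Serpina3g and Nrn1, with r of 0.9999, 0.9998 and 0.9996. These correlations largely restate the difference between the groups.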
